A study of Rattus norvegicus with 14 samples.

Results

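The aldo-keto reductases are represented here by 9 genes: Akr1b8, Akr1b10, Akr7a3, Akr1c12 and Akr1c15, taken as inducible, and Akr7a2, Akr1d1, Akr1a1 and Akr1b1, taken as constitutive. They were listed by name with earlier results of these data known, and 7 other Akr genes of the array are not among them. Each was read from the brightest probe whose platform annotation gives that single gene symbol, so that 9 of 14506 genes were taken and all 9 were measured. All livers came from female Zucker rats of the lean genotype (fa/+), in which the fa allele of the leptin receptor is present in a single copy. The series title gives their age as about 15 weeks. In the extract group, 7 rats ate a standard diet containing 0.05% (w/w) of a rosemary extract for 64 days. The extract was rich in carnosic acid (40%), a diterpene with phenolic groups. In the control group, 7 rats ate the standard diet alone for the same time. The sample labels give the dose as 0.05%, whereas the series title gives 0.5%. Each rat had its own array, and values are log2 expression values made with RMA, so that a difference of 1 is a doubling.

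Aldo-keto reductases use NADPH to turn aldehydes and ketones into alcohols. In the liver they clear reactive carbonyls from foods, toxins and lipid peroxidation, and they also act on sugars, steroids and bile acid precursors. The regulator NRF2 raises transcription of several family members when electrophiles such as oxidised phenols are present, whereas other members are made steadily. The comparison asks which of these liver transcripts differed after 64 days of feeding.

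The inducible members rose and the constitutive members did not pass. In limma's test across all genes, with a Benjamini-Hochberg adjusted p of 0.05 as the threshold, 5 of the 9 members were higher with the extract and 0 were lower, where 3.15% of all genes were called (2% higher and 1.15% lower). Without control rat 1 the calls over all genes were 329 higher and 292 lower, against 290 and 167 with all rats, and the same 5 members were called. All 5 were the genes listed as inducible, with log2 folds between 0.71 and 4.57 and a median of 2.21. The 4 constitutive members had log2 folds between 0.05 and 0.25 with a median of 0.09, and the median over all 14506 genes was -0.00088. The labels inducible and constitutive were given with earlier results of these data known, so the division is a description.

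The stretch around the start site was compared for the members that had a RefSeq entry on the GRCr8 assembly, from 250 bases before to 50 bases after the start. Of the 9 members, 7 were matched, and Akr1b1 and Akr1d1 were not analysed here in this respect. The windows of Akr7a3 and Akr7a2, neighbouring paralogues of which only Akr7a3 passed the test, are shown with CpG dinucleotides in capitals, beside that of Akr1b8, which had the largest log2 fold of the 9.
Akr7a3 (chr5:156876471-156876770, + strand): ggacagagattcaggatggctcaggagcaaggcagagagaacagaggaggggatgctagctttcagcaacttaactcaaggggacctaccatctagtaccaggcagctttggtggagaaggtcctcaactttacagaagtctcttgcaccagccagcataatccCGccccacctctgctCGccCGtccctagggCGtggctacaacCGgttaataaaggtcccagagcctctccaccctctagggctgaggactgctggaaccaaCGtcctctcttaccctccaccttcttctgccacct
Akr7a2 (chr5:156835339-156835638, + strand): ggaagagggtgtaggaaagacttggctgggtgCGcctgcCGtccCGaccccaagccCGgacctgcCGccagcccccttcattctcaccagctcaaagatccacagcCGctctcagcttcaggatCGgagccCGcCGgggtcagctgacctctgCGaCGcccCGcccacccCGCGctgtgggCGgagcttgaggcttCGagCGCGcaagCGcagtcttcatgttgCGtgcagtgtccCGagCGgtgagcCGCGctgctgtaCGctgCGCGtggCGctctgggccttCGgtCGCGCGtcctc
Akr1b8 (chr4:63964171-63964470, + strand): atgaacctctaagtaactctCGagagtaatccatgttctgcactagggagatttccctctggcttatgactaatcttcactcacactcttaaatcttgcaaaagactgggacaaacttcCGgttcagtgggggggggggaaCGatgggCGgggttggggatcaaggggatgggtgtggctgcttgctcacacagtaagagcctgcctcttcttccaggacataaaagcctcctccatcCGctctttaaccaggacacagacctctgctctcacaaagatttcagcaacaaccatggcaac
The Akr7a2 window held 32 CpG dinucleotides, more than 91.6% of the 33469 promoter windows of the same length, and 68.7% of its bases were G or C. The Akr7a3 window held 6 and the Akr1b8 window 5, close to the median of 7 over all windows. Akr1a1, the other constitutive gene with an entry, held 15. Akr1b10, Akr1c12 and Akr1c15 held 2 each, so every inducible member lay below both constitutive members that could be read.

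The core letters of the antioxidant response element, TGACNNNGC, to which NRF2 binds, were then searched on both strands (GCNNNGTCA on the other strand). They occurred in 12.1% of all windows and in 1 of the 7 members, Akr1c15, whose window is shown with the 2 matches in capitals.
Akr1c15 (chr17:71117908-71118207, - strand): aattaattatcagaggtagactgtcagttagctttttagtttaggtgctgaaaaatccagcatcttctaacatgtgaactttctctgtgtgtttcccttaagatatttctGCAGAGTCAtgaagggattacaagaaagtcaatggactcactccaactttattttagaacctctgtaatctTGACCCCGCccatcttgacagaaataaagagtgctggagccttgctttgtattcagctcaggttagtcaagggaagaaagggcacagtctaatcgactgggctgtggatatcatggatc
The matches began 140 and 69 bases before the start site, with the more distant match on the opposite strand and the nearer on the strand of the gene, and they did not overlap. The letters TATAAA were in 14.2% of all windows, on either strand, and in 0 of the 7 members. These matches describe the letters of short windows and say nothing of sites farther away.

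Akr1b8 had the largest log2 fold of all 14506 genes. This gene encodes an aldose reductase-like enzyme that reduces aliphatic and aromatic aldehydes. Its log2 values ran from 10.53 to 11.11 with a median of 10.64 in extract rats, against 5.15 to 7.28 with a median of 6.28 in control rats. The 7 extract rats lay close together and all lay above the 7 control rats, which were spread over more than 2 log2 units. Akr1b8 averaged 10.76 ± 0.22 with the extract and 6.19 ± 0.88 in controls (SD, n = 7 each). Its log2 fold was 4.57 ± 0.29 (SE; 95% interval 3.97 to 5.18; adjusted p = 2.71e-08). Control rats 6, 5 and 2, at 5.15, 5.23 and 5.58, were near 5.11, the median of all probes over the control arrays, where RMA compresses differences, so the fold may be too small.

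Akr1b10 lies beside Akr1b8 on chromosome 4, and its human namesake reduces retinal and lipid aldehydes. Its log2 values ran from 9.18 to 11.28 with a median of 10.48 in extract rats and from 6.51 to 8.84 with a median of 8.06 in control rats. The groups did not overlap, although extract rat 2, at 9.18, was only 0.34 above the highest control. Akr1b10 rose 5.93-fold (log2 fold 2.57 ± 0.37 SE, adjusted p = 0.000425), with the widest 95% interval of the 9 members, 1.79 to 3.34.

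Akr7a3 encodes the rat aflatoxin aldehyde reductase, which turns the reactive dialdehyde of aflatoxin into an alcohol and is known in rats for its response to antioxidant chemicals. It ran from 11.23 to 11.67 with a median of 11.46 in extract rats, against 8.57 to 9.75 with a median of 9.40 in controls. All extract rats were above all controls, and the gap between the groups exceeded the range of either. The gene rose 4.61-fold (log2 fold 2.21 ± 0.14 SE, adjusted p = 3.32e-08). By p it ranked in place 5 of all genes, directly after Akr1b8 in place 4.

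The Akr1c members belong to the hydroxysteroid dehydrogenases, enzymes that reduce steroids and other ketones. Akr1c12 ran from 6.02 to 7.53 with a median of 6.63 in extract rats and from 4.47 to 5.60 with a median of 5.13 in controls, with no overlap. It rose 2.81-fold (log2 fold 1.49 ± 0.22 SE, adjusted p = 0.000498), and its control values lay around the median probe of 5.11. Akr1c15 ran from 7.15 to 8.02 with a median of 7.65 in extract rats and from 6.41 to 7.24 with a median of 6.83 in controls. The groups overlapped in a narrow band: 5 of 7 extract rats exceeded the highest control, and 6 of 7 controls were below the lowest extract rat. Akr1c15 rose 1.64-fold (log2 fold 0.71 ± 0.14 SE, adjusted p = 0.00810). Among the 9 members, 4 showed no overlap with all extract rats above all controls, where 1.09% of all genes did. RefSeq lists Akr1c13 as an older name of Akr1c12 and the reverse. Whether the probes tell such close copies of the family apart was not tested.

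**Figure D1:**
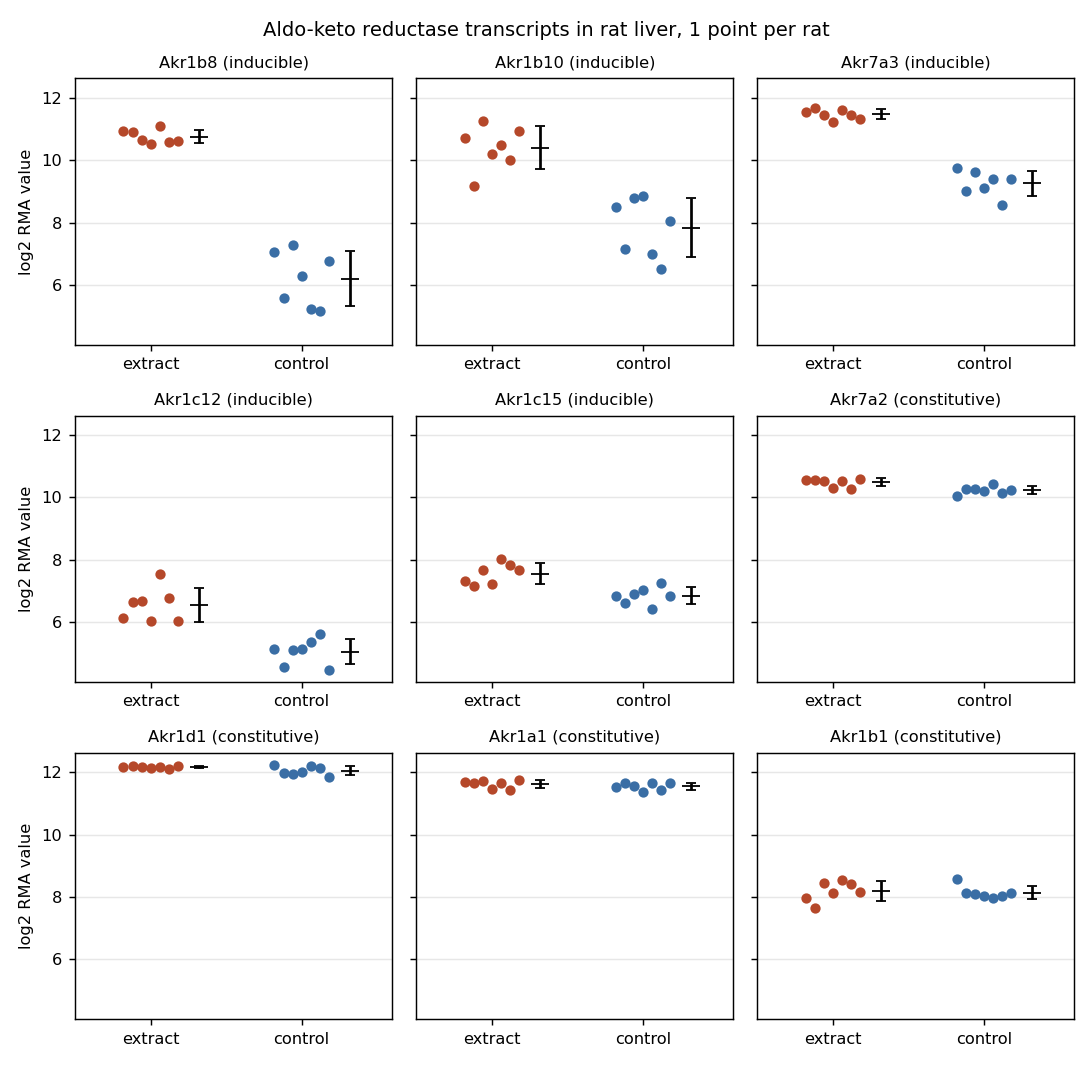
Log2 RMA values (vertical axis) of the 9 aldo-keto reductases in 7 extract and 7 control rats, with 1 point per rat in order of rat number and the mean ± SD beside each group. Akr1b8, Akr1b10, Akr7a3 and Akr1c12 show no overlap between the groups, and Akr1c15 overlaps narrowly, whereas the points of the 4 constitutive genes overlap.

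The 4 constitutive members overlapped between the diets, and 0 passed (1 had an unadjusted p under 0.05 in limma). Akr7a2, which reduces succinic semialdehyde and related aldehydes, ran from 10.28 to 10.60 with a median of 10.53 in extract rats and from 10.03 to 10.44 with a median of 10.23 in controls. Although 5 of 7 extract rats exceeded the highest control, the log2 fold of 0.25 ± 0.07 (SE) did not pass (adjusted p = 0.077; unadjusted p = 0.00323 in limma). With array weights the adjusted p was 0.036, and it was 0.044, 0.047 and 0.048 without control rat 5, extract rat 4 or extract rat 6. The 95% interval of its log2 fold, 0.10 to 0.41, lay wholly below that of Akr7a3, 1.91 to 2.51.

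Akr1d1, the 5-beta-reductase of bile acid and steroid hormone metabolism, had means of 12.16 ± 0.03 in extract rats and 12.05 ± 0.14 in controls (SD, n = 7 each). Its values ran from 12.12 to 12.20 in extract rats, inside the range of 11.84 to 12.24 in controls (log2 fold 0.11 ± 0.07 SE, adjusted p = 0.46). Akr1a1, the aldehyde reductase that makes gulonate from glucuronate on the way to vitamin C, ran from 11.42 to 11.75 in extract rats and from 11.38 to 11.65 in controls (log2 fold 0.07 ± 0.07 SE, adjusted p = 0.74). Akr1b1, aldose reductase, which makes sorbitol from glucose, ran from 7.65 to 8.55 in extract rats and from 7.96 to 8.57 in controls (log2 fold 0.05 ± 0.13 SE, adjusted p = 0.91). The 95% intervals of the log2 fold were -0.02 to 0.25 for Akr1d1, -0.08 to 0.22 for Akr1a1 and -0.21 to 0.32 for Akr1b1, which bounds the change at these sample sizes without showing that there was none. Akr1b1 was the only member with a further probe, which was dim (4.07 with the extract and 3.95 in controls) and had a log2 fold of 0.12. A two-sided exact permutation test of each member over the 3432 assignments of 7 of 14 rats gave p = 0.000583, the smallest it can give, for Akr1b8, Akr1b10, Akr7a3 and Akr1c12. It gave exact p = 0.00175 for Akr1c15, 0.00408 for Akr7a2, 0.063 for Akr1d1, 0.31 for Akr1a1 and 0.74 for Akr1b1, without adjustment.

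**Figure D2:**
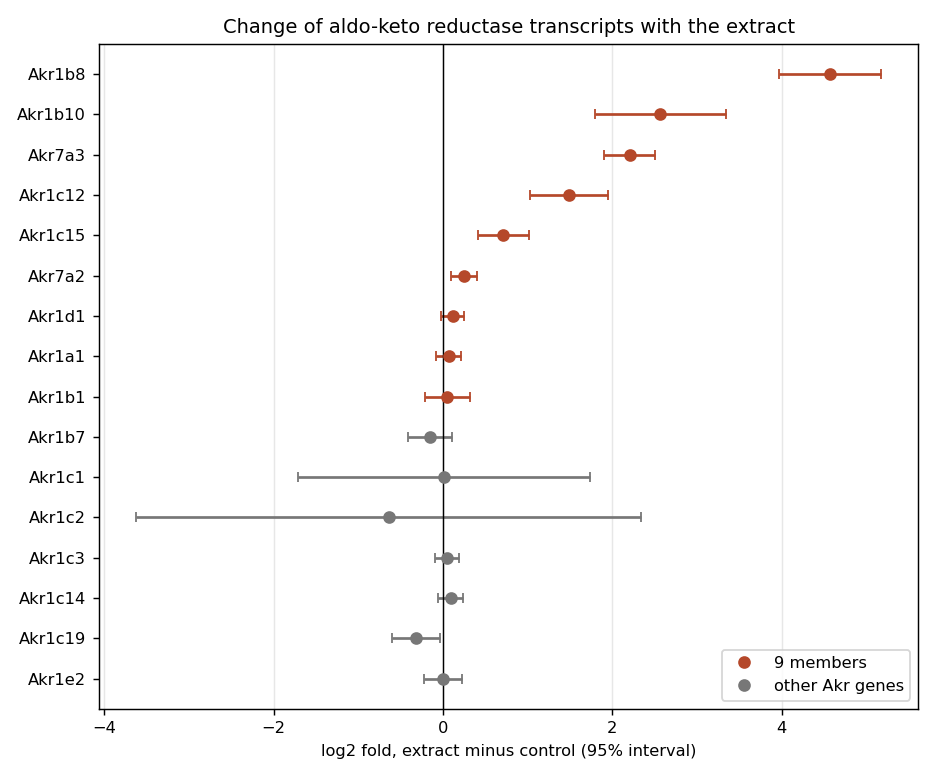
Log2 fold, extract minus control, with limma's 95% interval (horizontal axis) for the 9 members in red and the 7 other Akr genes of the array in grey. The intervals of the 5 inducible members lie above 0.41, and those of Akr1c1 and Akr1c2 are wide because their values differ greatly between rats of the same diet.

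The differences between related genes were themselves tested. For each of 7 pairs chosen by family, the log2 value of the second gene was subtracted from that of the first in each rat, and the groups were compared by a two-sided exact permutation test over the 3432 assignments, adjusted over the 7 pairs. The smallest p this test can give is 0.000583, which becomes 0.000816 after adjustment. The members of these pairs were chosen and labelled with earlier results of these data known. The p-values therefore describe the contrasts and are no independent support for them. Akr7a3 changed more than Akr7a2 by 1.95 ± 0.17 (SE) on the log2 scale (exact permutation adjusted p = 0.000816, n = 7 each), and Akr1b8 more than Akr1b1 by 4.52 ± 0.33 with the same p. Akr1b10 changed more than Akr1b1 by 2.52 ± 0.40 and less than Akr1b8 by 2.00 ± 0.33, again at that smallest p. In these 4 pairs, and in Akr1c12 against Akr1d1 (1.38 ± 0.24), the per-rat differences of the 7 extract rats lay wholly above those of the 7 controls. Akr1c15 changed less than Akr1c12 (-0.78 ± 0.22) and more than Akr1d1 (0.60 ± 0.18), with some overlap and an exact permutation adjusted p = 0.00641 for each.

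Genes that rose and genes that did not pass lay side by side on the chromosomes. On GRCr8, Akr1b1, Akr1b8, Akr1b10 and Akr1b7 lie next to each other on chromosome 4 with 0 protein-coding genes between them. The inner pair rose, while the outer genes did not pass: Akr1b7, an aldose reductase-related gene that is not among the 9, had means of 11.01 with the extract and 11.17 in controls (log2 fold -0.16, adjusted p = 0.62). Akr7a2 and Akr7a3 adjoin each other on chromosome 5. On chromosome 17, Akr1c12 and Akr1c15 are separated by Akr1c3 and Akr1c14, which had log2 folds of 0.05 and 0.09. Akr1c14, the main hepatic 3-alpha-hydroxysteroid dehydrogenase of the rat, had means of 12.61 with the extract and 12.52 in controls.

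Of the other family genes, counted with the 3 potassium channel beta subunits that are related to the family in sequence, 10 were measured, 0 rose, 0 fell and 10 did not pass. Over all genes 3.15% were called, and for 10 genes a count of 0 is near that share. The median log2 fold of these 10 was 0.01. At an unadjusted p under 0.05 in limma there was 1, Akr1c19 (log2 fold -0.32, adjusted p = 0.27). Akr1c2 and Akr1c1, neighbours on chromosome 17, had the largest spread between rats of all genes, and neither passed between the diets (adjusted p = 0.90 for Akr1c2 and 0.997 for Akr1c1). Akr1c2 stood at 9.85 and 10.36 in extract rats 4 and 6 but between 3.85 and 4.74 in the other 5 extract rats. In controls it stood at 11.70 and 11.51 in rats 5 and 6 but between 4.24 and 4.84 in the other 5. Akr1c1 was high in the same 4 rats: 7.85 and 7.60 in extract rats 4 and 6 and 7.44 and 7.08 in control rats 5 and 6, against 3.47 to 3.91 in the other extract rats and 3.51 to 4.21 in the other controls. By SD within diets these were the genes in places 1 and 2 of 14506. Each diet thus had 2 high and 5 low rats, with nothing in between. Whether the probes of Akr1c1 and Akr1c2 tell these 2 genes apart was not tested.

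**Figure D3:**
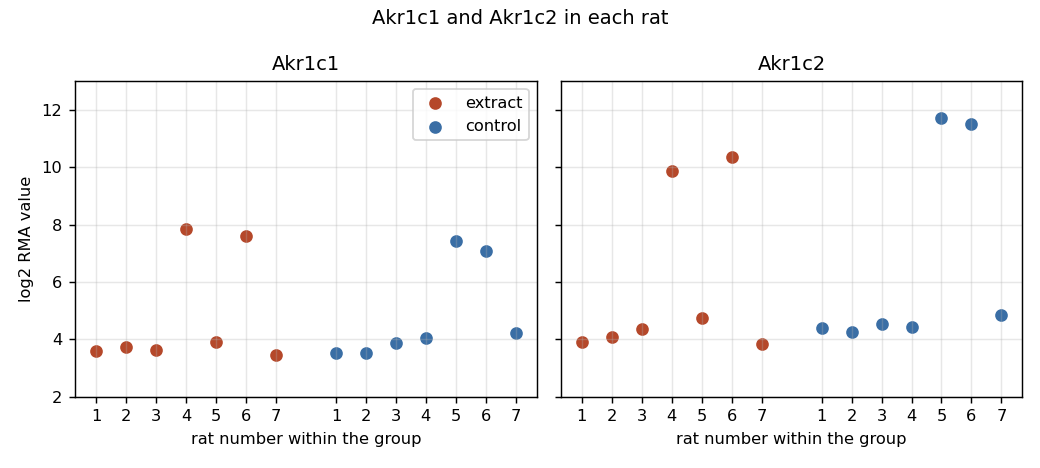
Log2 RMA values (vertical axis) of Akr1c1 and Akr1c2 in each rat (horizontal axis: rat number within the group), extract rats left and control rats right. The same 4 rats, extract 4 and 6 and control 5 and 6, stand at 7.08 or above in both genes while the other 10 stay at or below 4.84.

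The spread between rats on the same diet differed from member to member. The median SD of the inducible members was 0.33 in extract rats and 0.41 in controls, against 0.13 and 0.14 for the constitutive members and 0.16 and 0.16 for all genes. In control livers Akr1b10 (SD 0.94) and Akr1b8 (SD 0.88) were in places 5 and 7 of all genes by SD. With the extract the SD of Akr1b8 was 0.22, so that the control SD was 3.93 times as large, and for Akr7a3 it was 2.55 times as large (0.16 with the extract and 0.40 in controls). The extract SD of Akr7a3 was near the median gene, with 49.6% of genes larger. Akr1b10 kept a large spread with the extract (SD 0.69), and Akr1c12 had the larger SD with the extract (0.54 against 0.41). The constitutive Akr1b1 had an SD of 0.31 with the extract, above those of Akr1b8 and Akr7a3, and 0.20 in controls. Akr1d1 had an SD of 0.03 over extract rats, smaller than in 99.9% of genes, against 0.14 over controls. These SDs were not tested against each other. A fit with a variance weight for each diet, shared by all genes, gave the same 5 calls. It cannot address unequal spread of a single gene, because the median SD over all genes was 0.16 in both diets.

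**Figure D4:**
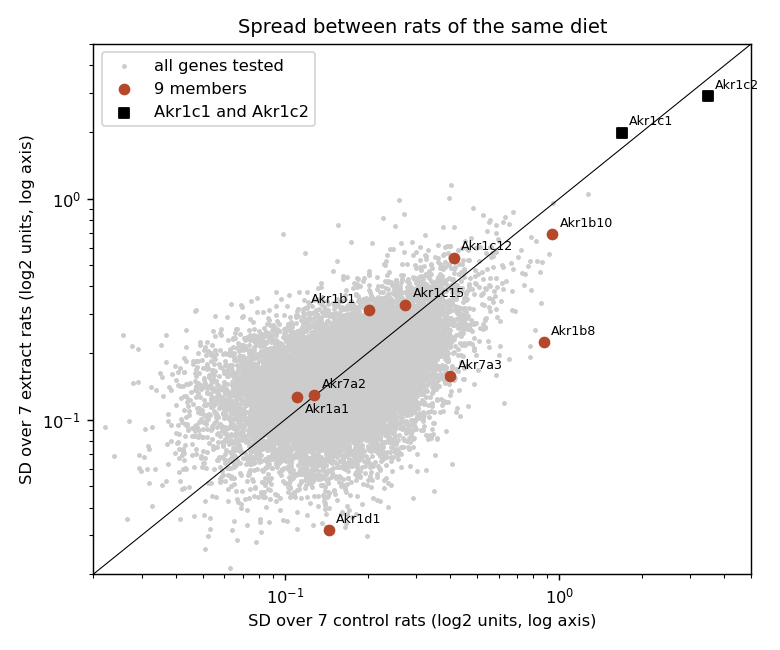
SD over the 7 extract rats (vertical axis) against SD over the 7 control rats (horizontal axis), both in log2 units on log axes, for all genes tested (grey), the 9 members (red) and Akr1c1 and Akr1c2 (black squares), with the line of equal SD. Akr1b8, Akr1b10, Akr7a3 and Akr1d1 lie below the line. Akr1c12, Akr1c15, Akr1b1 and Akr1a1 lie above it, and Akr7a2 lies almost on it. Akr1c1 and Akr1c2 are at the far upper right.

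Covariation was read within each diet, since the diets form separate clusters. All 36 pairs of members were correlated over the 7 rats of each diet, 72 correlations in all, with exact permutation p-values adjusted over the 72. In both diets 0 pairs passed the adjusted threshold by Pearson's r and 0 by Spearman's rho, while 5 pairs in extract rats and 3 in controls had an unadjusted exact p under 0.05. In controls, Akr1b8 and Akr1b10 gave r = 0.89 (exact permutation p = 0.020, adjusted p = 0.24, n = 7; rho = 0.79, exact p = 0.048, adjusted p = 0.58), and r = 0.73 without the 2 rats farthest from the median of Akr1b8. In extract rats the same pair gave r = -0.21 (exact p = 0.66, n = 7; rho = 0.14, exact p = 0.78), and r = -0.63 without the 2 farthest rats. Control rats 1, 3, 4 and 7 were the higher 4 and rats 2, 5 and 6 the lower 3 in both genes. Akr1b8 and Akr7a3 gave r = 0.85 in extract rats (exact p = 0.016, adjusted p = 0.23, n = 7; rho = 0.86, exact p = 0.024) and r = 0.76 in controls (exact p = 0.047, adjusted p = 0.43, n = 7; rho = 0.86, exact p = 0.024). Without the 2 farthest rats these were 0.91 and 0.92.

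Among constitutive genes, Akr7a2 and Akr1a1 gave r = 0.99 in extract rats (exact p = 0.00198, adjusted p = 0.14, n = 7; rho = 0.89, exact p = 0.012), 0.78 without the 2 farthest rats. Those rats, extract 4 and 6, were the lowest in Akr7a2 (10.30 and 10.28), in Akr1a1 (11.46 and 11.42) and in Akr1d1 (12.13 and 12.12). They are the extract rats with high Akr1c1 and Akr1c2. Control rats 5 and 6, also high in Akr1c1 and Akr1c2, were not the lowest controls in these genes. They had 10.44 and 10.15 in Akr7a2, 11.65 and 11.44 in Akr1a1, and 12.20 and 12.13 in Akr1d1. The array of extract rat 4 had the lowest weight of the extract arrays (0.46), against 1.01 for extract rat 6. Its part in these values was not tested. In controls Akr7a2 and Akr1a1 gave r = 0.52 (exact p = 0.24, n = 7, with rho = 0.61, exact p = 0.17). In extract rats Akr1d1 gave r = 0.92 with Akr7a2 and 0.89 with Akr1a1, and 0.64 and 0.32 without the 2 farthest rats. The remaining pairs with an unadjusted exact p under 0.05 joined an inducible to a constitutive member. Akr1c15 and Akr1b1 gave r = 0.87 in extract rats (exact p = 0.013, adjusted p = 0.23, n = 7; rho = 0.93, exact p = 0.00675) and r = 0.04 in controls. Akr1c15 and Akr1a1 gave r = -0.0047 in extract rats and r = -0.81 in controls (exact p = 0.032, adjusted p = 0.33, n = 7; rho = -0.68, exact p = 0.11). Extract rat 5 was highest in 3 of the 5 inducible members, Akr1b8, Akr1c12 and Akr1c15. Extract rat 2 was highest in Akr7a3 and lowest in Akr1b10 and Akr1c15.

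**Figure D5:**
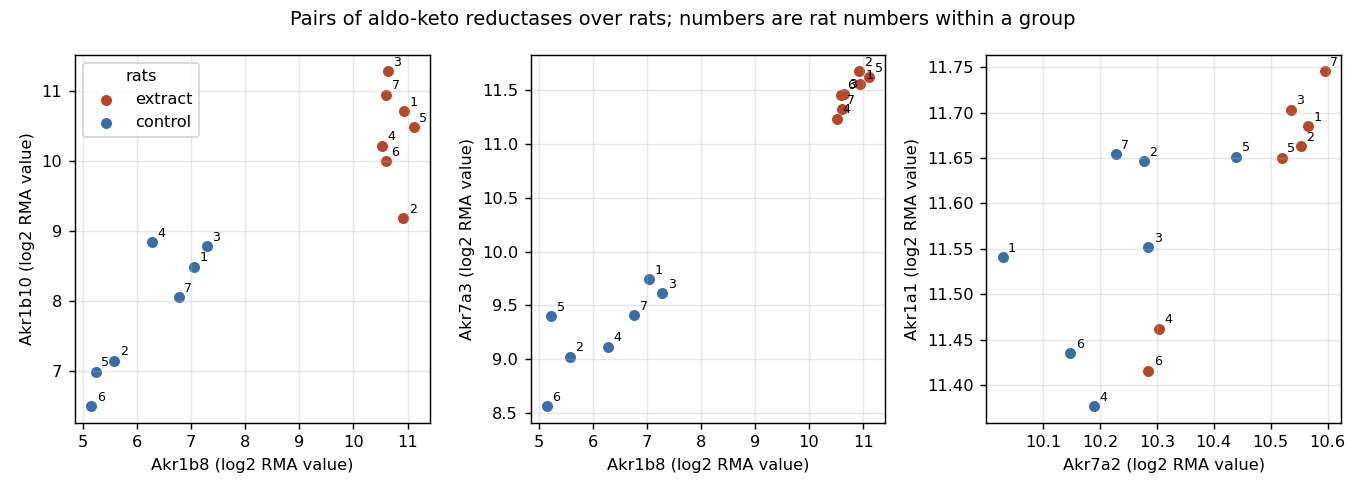
Log2 RMA values of 3 pairs of members (axes) in extract rats (red) and control rats (blue), each point a rat with its number. In the first 2 panels, both with Akr1b8 on the horizontal axis, control rats run along a diagonal and extract rats form a separate group at 10.53 or above; in the third, extract rats 4 and 6 lie apart from the other 5.

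For Akr1b8 and Akr7a3 the genes of most similar pattern were sought outside the family, by Pearson's r over 14 rats after removing each diet's mean, which describes these arrays only and carries no test. Gstp1, a glutathione transferase that conjugates electrophiles, was the only gene among the closest 5 of both members, with r = 0.90 to Akr1b8 and 0.85 to Akr7a3, and it rose too (12.26 with the extract and 9.90 in controls, adjusted p = 2e-05). Within diets its r to Akr1b8 was 0.55 in extract rats and 0.93 in controls, and to Akr7a3 0.65 and 0.88. The other 4 closest to Akr1b8 were Lcn6, Pax6, Or1f34 and Tex36 (r from 0.86 to 0.91), of which the first 3 had means of 4.10 or less, below the median probe, and Tex36 did not pass (adjusted p = 0.069). Within diets their r to Akr1b8 was 0.12 to 0.37 in extract rats and 0.92 to 0.98 in controls. Those of Akr7a3 were Chchd3, Flt3, Vipr2 and Slc18a3 (r from 0.82 to 0.87), with adjusted p from 0.75 to 0.96 in limma, and their r to Akr7a3 was 0.24 to 0.73 in extract rats and 0.90 to 0.94 in controls. With 14 rats and 14506 genes, values of this size arise in dim probes as well.

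Genes of pathways around the family were counted beside the shares called over all genes, 2% higher and 1.15% lower. Of 28 measured genes of carbonyl and aldehyde metabolism outside the family, 6 rose, 0 fell and 22 did not pass, with a median log2 fold of 0.09. Aldh1a1, a retinaldehyde dehydrogenase, had means of 11.28 with the extract and 9.83 in controls (log2 fold 1.45, adjusted p = 1.6e-06), and Ptgr1, which reduces alkenals and prostaglandins, 9.62 and 9.02 (0.60, adjusted p = 0.00145). Aldh1l1, of folate metabolism, had a log2 fold of 0.65 and the short-chain dehydrogenase Dhrs1 of 0.51. Around Akr1a1, 3 of 9 genes of the glucuronate and vitamin C pathway rose and 0 fell. Ugp2 and Ugdh, which make UDP-glucose and UDP-glucuronate, had log2 folds of 0.94 and 1.02 (adjusted p = 1.23e-05 and 2.33e-05). Cryl1, which oxidises gulonate, the product of Akr1a1, had means of 9.90 with the extract and 8.06 in controls (log2 fold 1.84, adjusted p = 3.12e-06).

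Around the steroid-reducing members, 2 of 18 measured genes rose, 1 fell and 15 did not pass. Hsd11b1, which interconverts active and inactive glucocorticoids, had a log2 fold of 1.28 (adjusted p = 0.014) and the glucuronosyltransferase Ugt2b1 of 0.37 (adjusted p = 0.014), whereas Hsd17b13, a lipid droplet protein, had -0.42 (adjusted p = 0.00695). Of 13 genes of bile acid synthesis around Akr1d1, limma called 0 (3 had an unadjusted p under 0.05), with Cyp39a1 first (log2 fold 0.29, adjusted p = 0.088). Of 7 measured polyol and fructose genes around Akr1b1 it called 0 (2 had an unadjusted p under 0.05), with the fructose transporter Slc2a5 first (log2 fold -0.60, adjusted p = 0.074). In lists of 13 and 7 genes a count of 0 is near the share called over all genes. Among NRF2 targets outside the family, 18 of 26 rose and 0 fell, with a median log2 fold of 0.67. The smallest p were those of Abcc3 (1.97), Nqo1 (1.55), Gsr (0.84) and Me1 (1.22), given as log2 folds.

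Array medians over genes lay between 6.00 and 6.18, and pairs of arrays correlated between 0.984 and 0.997 over genes. The number of arrays limits precision, with a median SE of a log2 fold of 0.09 over all genes. All 8 hepatocyte markers were measured and 0 passed in limma (0 had an unadjusted p under 0.05; median log2 fold -0.03; their mean level was 12.49 to 12.59 in extract rats and 12.50 to 12.64 in controls). All 10 macrophage markers had negative log2 folds (2 passed, 9 had an unadjusted p under 0.05, median -0.28), and their mean level was 8.47 to 8.81 in extract rats and 8.86 to 9.08 in controls. The part of these cells in the aldo-keto reductase values was not tested, and in whole liver fewer cells of a type and less RNA per cell cannot be told apart. Of 5 endothelial, 8 stellate cell, 5 bile duct, 7 lymphocyte, 3 erythroid and 2 intestinal markers, 0 rose, and 1 stellate cell and 1 intestinal marker fell. In marker lists this short, a count of 0 is near the 3.15% called over all genes. All 5 endothelial markers had negative log2 folds (2 had an unadjusted p under 0.05, median -0.14), at a mean level of 8.84 to 9.43 in extract rats and 9.28 to 9.42 in controls. All 3 erythroid markers were negative too (0 had an unadjusted p under 0.05, median -0.16). Signs were mixed in the stellate cell, bile duct, lymphocyte and intestinal lists, with medians of -0.14, 0.14, -0.03 and -0.39. Pancreas and kidney markers were dim and 0 passed in limma (1 and 0 had an unadjusted p under 0.05), at 4.58 to 5.25 and 3.66 to 3.92 in extract rats and 4.69 to 5.15 and 3.65 to 3.79 in controls.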

How the data were processed

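Total liver RNA of 14 rats was hybridised as biotin-labelled sense-strand DNA on whole-transcript Affymetrix arrays, 1 per rat, as the labels' protocols describe. The authors deposited 29215 probes on a log2 scale, made with RMA and Affymetrix Expression Console 1.1.2 per the submitters' processing notes. The options used and the genome build are not given in the sources used here, and the log2 scale was read from the range, 1.95 to 14.0.

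Platform annotation named 15310 probes with 1 gene symbol and 323 with several, and those with several were not used. Each gene was read from its brightest probe (mean of 14 arrays), giving 14506 genes, with no filter on dim probes. limma 3.58.1 in R 4.3.3 compared the diets (lmFit and eBayes, two-sided, no covariate), with Benjamini-Hochberg adjustment over all genes. Tested on simulated data with the means and variances of these 14506 genes, the fit called 88.4% of genes given a log2 shift of 0.5, 99.6% at a shift of 1 and 100% at a shift of 2. False calls made up 4.61% of its calls. Unequal spread between diets or between arrays was not simulated, so these rates may not hold for the real values. Per-rat differences and correlations used exact permutation tests (Python 3.11.15, SciPy 1.17.1). Promoter windows come from RefSeq on GRCr8.

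The members and the 7 gene lists were chosen with earlier results of these data known. Named genes are all 9 members, from each list at most 4 genes that passed, in order of p (where none did, only the first by p), and the 5 genes closest in pattern to Akr1b8 and to Akr7a3. Akr1c1, Akr1c2 and the remaining family genes were named after their values were seen. Alternatives were repeated quantile normalization, median centring, a filter at a mean of 6, averaging a gene's probes, an intensity trend with robust prior, array weights, a variance weight per diet, the rat number as a replicate block, and leaving out each array. The labels give no batch.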

Additional observations from a re-analysis of the deposited data

Results flagged for a closer look

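A single control rat stood apart from the other 6 in 2 of the 38 combinations of family gene and diet that were examined, and chance alone gives about 1 such gap in 20. Control rat 1 had 8.57 for Akr1b1, against 7.96 to 8.13 in the other controls, and without it the log2 fold of Akr1b1 was 0.12 (adjusted p = 0.65 in limma). The same rat had 10.64 for Akr1b7, the neighbour of Akr1b10, against 11.10 to 11.37 in the other controls. Control rat 1 also had the lowest array weight of the 14 (0.41) and the lowest median correlation with the other arrays (0.989).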

How the results depend on the processing

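The calls of Akr1b8, Akr1b10, Akr7a3 and Akr1c15 were held under every setting run, with log2 folds of 4.40 to 4.75, 2.35 to 2.77, 2.09 to 2.29 and 0.63 to 0.78. Akr1c12 was held wherever it was tested (1.33 to 1.58), but its mean was below 6, so the filter on dim genes left 4 of the 5 calls. Akr7a2 did not pass in the main comparison and passed with array weights (log2 fold 0.25, adjusted p = 0.036). Its log2 fold lay between 0.22 and 0.29 when each rat was left out, and it passed without control rat 5, extract rat 4 or extract rat 6. The log2 fold of Akr1b1 lay between -0.0090 and 0.14 when each rat was left out, with the negative value without extract rat 5, and it passed under 0 settings. All 7 differences between related genes kept their direction and their call in all settings run. Over all genes 457 were called, against 694 with array weights and 326 to 621 when each rat was left out; the cause was not tested. Without control rat 1 the calls were 329 higher and 292 lower, against 290 and 167 with all rats, so that 53.0% and 63.5% of the calls were higher. The deviations of same-numbered rats of the 2 diets correlated between -0.46 and 0.28 over all genes. No shared pattern by number was seen, which does not exclude a pairing. With the rat number as a replicate block 364 genes were called, among them the same 5 members. In that fit the SE of Akr1b10 was 0.22 against 0.37 in the main fit, and that of Akr1c12 0.15 against 0.22. The SEs of Akr1b1 and Akr1d1 were slightly larger. Members near the median probe, Akr1b8 and Akr1c12 in controls, are limited by signal over background.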
